A study of Mus musculus with 45 samples.

Results

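The genes described here are 6 genes of the mast cell, Cma1, Cpa3, Mcpt4, Tpsb2, Kit and Ms4a2, followed in the inguinal fat of suckling, weaned and adult mice. They were chosen by name, and each was read from the brightest probe to which the array annotation gave that symbol alone. Such a probe was found for 5 of the 6 genes, with 6 probes in all because Cma1 had 2, among 33012 probes and 13840 named genes on the array. Mcpt4 had no probe named in this way and was not analysed here.

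RNA was taken from inguinal fat of male C57BL/6J mice in 3 lactation diets, called Control, LUN (lactation under-nutrition) and LON (lactation over-nutrition), with pups or adults killed on day 5, 10, 21, 56 or 112. Control dams nursed litters of 8 pups and ate a breeder diet freely, LUN dams nursed litters of 8 pups and received 50% of the food that control dams had eaten, and LON dams nursed litters of 4 pups and ate a high fat diet freely. After weaning all 3 groups were treated alike, on low fat chow up to day 56 and on high fat food from then to day 112, so that age and diet after weaning change together at the last step. Each of the 15 groups was 1 pool of RNA from 12 males, hybridised to 3 Applied Biosystems Mouse Genome Survey arrays, which detect labelled RNA by chemiluminescence. The 3 arrays are therefore repeats of 1 pool, and p-values from the 45 arrays measure differences between pools against array error, not against the spread between mice.

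Mast cells are tissue cells of the blood lineage, filled with granules of proteases, heparin and histamine, which they release when antigen cross-links IgE on their surface. They enter tissues as progenitors, mature there under stem cell factor acting on the receptor Kit, and are a known resident of adipose and connective tissue. Cma1 encodes a chymase and Mcpt4 another, Cpa3 encodes carboxypeptidase A3 and Tpsb2 a tryptase, all stored in the granules. Ms4a2 encodes the beta chain of the high affinity IgE receptor. Kit is carried by melanocytes and some progenitor cells too, and Cpa3 is known in basophils as well.

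In the RefSeq annotation of GRCm38.p6, Cma1 lies on chromosome 14 from 55941451 to 55944675, Cpa3 on chromosome 3 from 20215616 to 20242209, Tpsb2 on chromosome 17 from 25366308 to 25368096, Kit on chromosome 5 from 75574987 to 75656722 and Ms4a2 on chromosome 19 from 11615517 to 11623790. The genes that moved most, Cma1 and Cpa3, thus lie on different chromosomes. The 250 bases before their starts are shown because these genes followed nearly one course over the 15 pools. They are given 5′ to 3′ on the strand of the gene, from RefSeq GRCm38.p6, with the letters GATAA, the core recognised by GATA factors, or its reverse complement TTATC in capitals. The window of Cma1 is chr14:55944676-55944925 on the minus strand and that of Cpa3 is chr3:20242182-20242431 on the minus strand, counted from the transcript start of the promoter table. For Cpa3 that start lies just inside the gene record.
Cma1: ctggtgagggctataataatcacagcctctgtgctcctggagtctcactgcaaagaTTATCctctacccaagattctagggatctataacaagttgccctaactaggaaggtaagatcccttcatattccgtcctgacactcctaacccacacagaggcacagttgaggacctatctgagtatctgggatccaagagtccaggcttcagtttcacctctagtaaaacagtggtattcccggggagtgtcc
Cpa3: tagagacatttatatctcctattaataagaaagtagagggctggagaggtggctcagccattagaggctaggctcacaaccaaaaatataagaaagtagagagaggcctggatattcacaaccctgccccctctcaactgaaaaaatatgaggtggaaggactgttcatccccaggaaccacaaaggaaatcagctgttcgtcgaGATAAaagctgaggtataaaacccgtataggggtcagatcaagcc

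GATAA was found 194 bases before the start of Cma1, on the other strand, and 45 bases before the start of Cpa3. A promoter window was given for 5 of the 6 genes, all but Tpsb2, and 4 of the 5 held GATAA on either strand, Kit being the exception. Of 32851 mouse promoter windows of 250 bases, 22.6% held it. The E-box CANNTG was found in 2 of the 5 windows, those of Cma1 and Cpa3, against 66.2% of all windows, and the RUNX core TGTGGT was found in 2 of the 5, those of Cpa3 and Mcpt4, against 14% of all windows. Both strands were searched, and no motif is contained in another. A match is a run of letters and not a measured site.

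Mean signal was high for 3 of the 5 measured genes, Tpsb2, Cma1 and Cpa3. Over all arrays the percentile of the mean signal among probes was 95.2 for Tpsb2 (probe 505868), 94.4 for the brighter Cma1 probe (915720), 91.9 for the dimmer Cma1 probe (415110) and 91.5 for Cpa3 (528841). It was 71.2 for Kit (922274). Ms4a2 (438151) stood at percentile 1.15, near the bottom of the array, so that its course was not measurable with this probe. Signals of different probes are not comparable as RNA amounts, and values below are normalized signals in arbitrary units, set on one scale over the 45 arrays.

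The signals of Cma1 and Cpa3 were highest at day 5 and fell to a low level by day 56 in all 3 diets. The mean signal of Cma1 at day 5 was 15.7 ± 4.1 times that at day 56 in Control, 23.5 ± 3.1 times in LUN and 16.4 ± 4.9 times in LON (ratio of means ± SD propagated from 3 arrays each). For Cpa3 the ratio was 11.8 ± 0.87 in Control, 18.2 ± 3.9 in LUN and 19.5 ± 5.6 in LON. For both genes, and in each diet, every array of day 5 was above every array of day 56. In whole tissue RNA, fewer mast cells and less of these RNAs per cell cannot be told apart.

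For Cma1 the 3 Control arrays read 142766, 145234 and 93825 at day 5, 70400, 79448 and 44809 at day 10, 13169, 14980 and 10943 on day 21, 9352, 7231 and 7813 on day 56, and 12203, 12608 and 8598 on day 112. The LUN arrays read 216022, 202191 and 177698 at day 5, 71058, 61445 and 63940 at day 10, 26726, 22796 and 29795 on day 21, 7850, 9319 and 8234 on day 56, and 10956, 11066 and 10619 on day 112. The LON arrays read 103812, 119081 and 99730 at day 5, 46962, 51758 and 68202 at day 10, 16418, 14003 and 15610 on day 21, 4397, 7808 and 7429 on day 56, and 7758, 8185 and 8146 on day 112. Within each diet the arrays of days 5, 10, 21 and 56 did not overlap between neighbouring ages, whereas those of days 56 and 112 overlapped in Control and LON.

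In group means, Cma1 ranged 30.3-fold over the 15 pools, from 6545 ± 1870 in LON at day 56 to 198637 ± 19408 in LUN at day 5 (SD, n = 3 arrays). The means of Control were 127275 ± 28995, 64886 ± 17966, 13031 ± 2022, 8132 ± 1096 and 11136 ± 2207 at the 5 ages in order. Those of LUN after day 5 were 65481 ± 4989, 26439 ± 3508, 8468 ± 762 and 10880 ± 233. Those of LON before and after its lowest value were 107541 ± 10200 on day 5, 55640 ± 11139 on day 10, 15344 ± 1229 on day 21 and 8030 ± 236 on day 112. At day 10 the arrays of the 3 diets overlapped, and the diet that stood apart at days 5 and 21 was LUN.

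Cpa3 was measured with the least scatter, its median coefficient of variation within a pool being 8.47% against 13.3% for Cma1, 21.9% for Kit, 28.0% for Ms4a2 and 34.3% for Tpsb2. Its Control arrays read 70400, 61966 and 67209 at day 5, 34696, 32301 and 33401 at day 10, 6214, 6212 and 6265 on day 21, 5574, 5871 and 5470 on day 56, and 4411, 3194 and 4964 on day 112. Its LUN arrays read 95858, 106038 and 76169 at day 5, 23518, 25235 and 24920 at day 10, 10676, 11060 and 9734 on day 21, 4391, 5093 and 5816 on day 56, and 7441, 7191 and 7851 on day 112. In Control most of the fall had passed by day 21, with array values close to those of day 56 though not overlapping them, whereas in LUN the arrays of day 21 were all above those of day 56.

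The LON arrays of Cpa3 read 97258, 101853 and 77096 at day 5, 37086, 41471 and 26853 at day 10, 9543, 12102 and 8562 on day 21, 3448, 5762 and 4952 on day 56, and 6547, 5533 and 6209 on day 112. In group means Cpa3 ranged 22.1-fold, from 4189 ± 906 in Control at day 112 to 92688 ± 15184 in LUN at day 5. At day 5 the LON mean, 92069 ± 13169, differed from that of LUN by less than 1 SD, and Control stood below both at 66525 ± 4258. For Cma1 at day 5 the 2 probes placed LON on different sides of Control, the brighter below it (log2 difference -0.22, limma adjusted p = 0.865) and the dimmer above it (0.21, adjusted p = 0.852), with overlapping arrays in both.

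**Figure D1:**
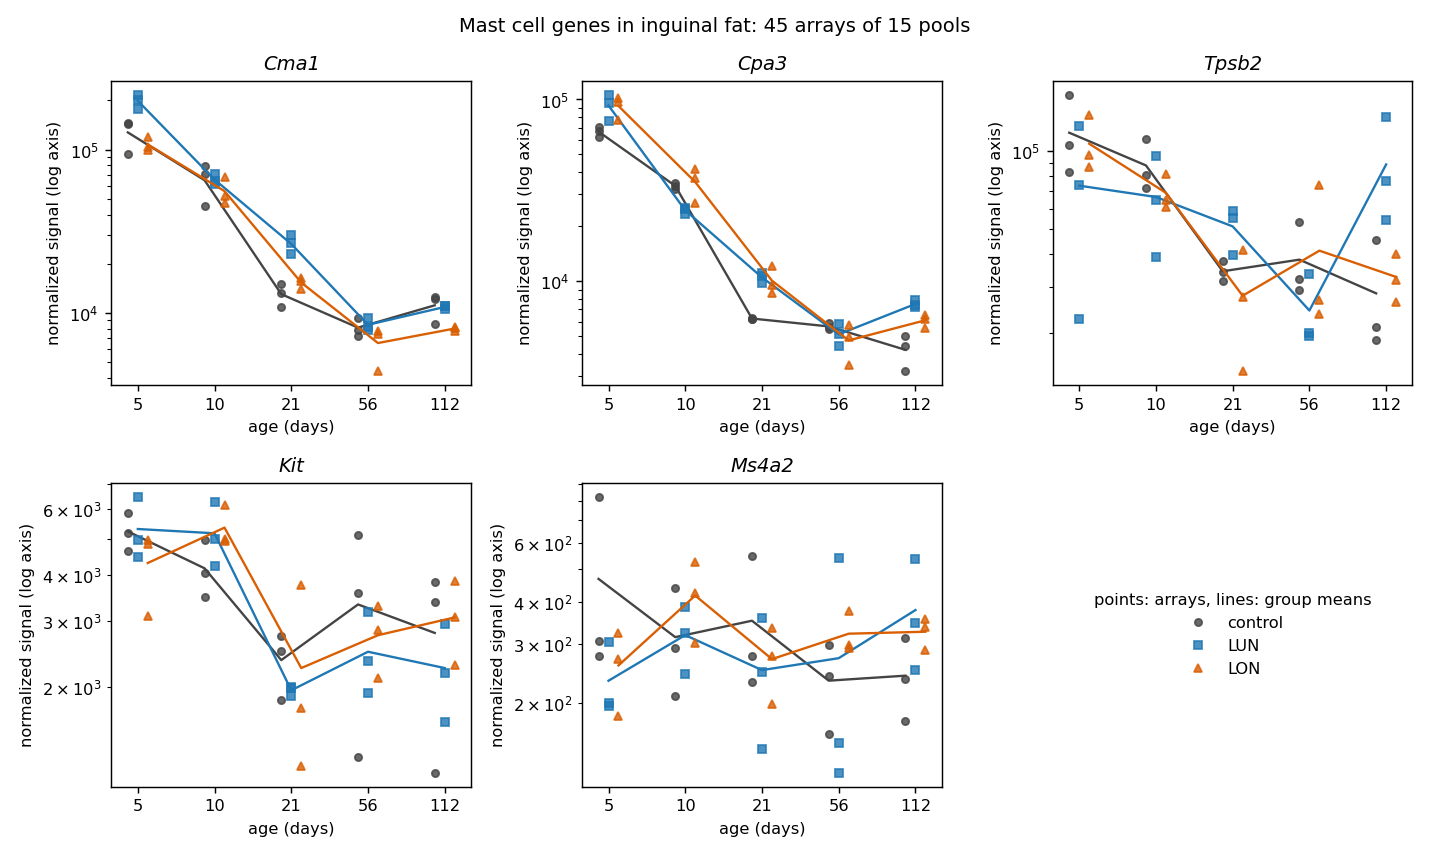
Normalized signal on a log axis against age in days for Cma1, Cpa3, Tpsb2, Kit and Ms4a2, with 1 point per array and lines through the group means of Control, LUN and LON. Cma1 and Cpa3 fell from day 5 to day 56 in every diet, between 11.8-fold and 23.5-fold in group means, while Ms4a2 stayed between 233 and 468.

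Over the steps between neighbouring ages, the array fit (limma on log2 signals, Benjamini-Hochberg adjustment over all 33012 probes, threshold 0.05) called 4 of 20 gene steps in Control, 8 of 20 in LUN and 6 of 20 in LON. At an unadjusted p under 0.05 there were 7, 10 and 8. From day 5 to day 10, Cma1 and Cpa3 were called lower in all 3 diets. Among all probes, 0.106% were called lower at this step in Control, 0.276% in LUN and 0.924% in LON.

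The log2 difference of Cma1 from day 5 to day 10 was -0.99 in Control (SE 0.23, adjusted p = 0.0396), -1.60 in LUN (adjusted p = 5.29e-05) and -0.96 in LON (adjusted p = 0.00967), all from limma with the same SE. For Cpa3 it was -0.99 in Control (SE 0.20, limma adjusted p = 0.0112), -1.90 in LUN (adjusted p = 1.76e-07) and -1.40 in LON (adjusted p = 1.47e-05). The Control calls were the least secure. The dimmer Cma1 probe was not called in Control at this step (-0.86, SE 0.21, limma adjusted p = 0.0706). Under median scaling neither Cma1 (adjusted p = 0.324) nor Cpa3 (0.388) was called at this step in Control, and Cpa3 lost its call there without any 1 of the day 10 arrays.

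From day 10 to day 21, the last part of suckling, the fall of both genes was called in every diet. In Control, Cma1 dropped by 2.29 on the log2 scale (SE 0.23, limma adjusted p = 9.43e-09) and Cpa3 dropped by 2.42 (SE 0.20, adjusted p = 1.12e-10). In LUN the falls were -1.31 for Cma1 (adjusted p = 0.000239) and -1.23 for Cpa3 (adjusted p = 9.8e-05), and in LON they were -1.84 (adjusted p = 1.1e-06) and -1.79 (adjusted p = 1.39e-07). Called lower at this step were 2.91% of all probes in Control, 2.12% in LUN and 1.41% in LON.

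From day 21 to day 56, after weaning, both genes fell again in LUN and LON. In LUN the log2 difference was -1.64 for Cma1 (limma adjusted p = 5.35e-06) and -1.05 for Cpa3 (adjusted p = 0.000543), and in LON it was -1.27 (adjusted p = 0.00065) and -1.11 (adjusted p = 0.000676). In Control neither was called, with -0.68 for Cma1 (adjusted p = 0.106) and -0.14 for Cpa3 (adjusted p = 0.861). The lower calls over all probes at this step were 1.16% in Control, 3.24% in LUN and 1.09% in LON.

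From day 56 to day 112, on the high fat diet, the members of the list were called only once. The log2 differences of Cma1 were 0.44 in Control, 0.37 in LUN and 0.34 in LON, and those of Cpa3 were -0.45, 0.56 and 0.40, with limma adjusted p from 0.137 to 0.575 for these 6 values. The call was that of the tryptase Tpsb2 in LUN, which was higher at day 112. At this step 3.37% of all probes were called in Control and 2.31% in LON in either direction, and 1.32% were called higher in LUN.

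The pools are the separate RNA samples, so the same steps were fitted to the 15 pool means with terms for age and diet, in which the 3 diets stand as repeats of an age. From day 10 to day 21 this fit called 3 of the 5 genes lower, Cma1 by -1.81 on the log2 scale (SE 0.24, limma adjusted p = 0.00663), Cpa3 by -1.82 (SE 0.27, adjusted p = 0.0124) and the receptor Kit by -1.20 (SE 0.22, adjusted p = 0.0304). Of all probes, 0.536% were called lower. At the other 3 steps the pool fit called 0 of 15 gene steps, with 4 of them at an unadjusted p under 0.05, against 0% of all probes from day 5 to day 10, 0.46% from day 21 to day 56 and 0.379% from day 56 to day 112 in either direction. Without the pools of any 1 diet, which leaves 2 pools an age, the fit called none of the 3 genes from day 10 to day 21.

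Kit, the receptor of stem cell factor, shared the fall from day 10 to day 21 with Cma1 and Cpa3, with a smaller range of 2.73-fold between group means. Over the pools its log2 difference was -0.01 from day 5 to day 10 and 0.35 from day 21 to day 56. At the same steps Cma1 gave -1.18 and -1.20 and Cpa3 gave -1.43 and -0.77, none of them called in the pool fit. Its Control arrays read 5182, 4635 and 5872 at day 5, 3479, 4041 and 4972 at day 10, 1847, 2503 and 2736 on day 21, 5110, 3584 and 1300 on day 56, and 3382, 1177 and 3822 on day 112. Its LUN arrays read 4973, 6485 and 4464 at day 5, 4989, 6287 and 4230 at day 10, and 1989, 1893 and 1998 at day 21. At day 21 the arrays of both diets lay below all their arrays of day 10, and the Control arrays of days 56 and 112 were spread from 1177 to 5110.

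In LUN the step of Kit from day 10 to day 21 was -1.38 on the log2 scale (SE 0.41, limma adjusted p = 0.0447). The LON arrays read 4850, 4966 and 3092 at day 5, 4928, 4991 and 6140 at day 10 and 3761, 1226 and 1760 at day 21, a log2 step of -1.41 (adjusted p = 0.0568), and the Control step was -0.82 (adjusted p = 0.308). The LUN call was lost without any 1 of the 6 arrays compared (adjusted p from 0.0644 to 0.163). After day 10 the group means of Kit lay between 1960 and 3331, against 4164 to 5353 at days 5 and 10.

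Tpsb2, the tryptase, was bright but scattered. Its Control arrays read 82887, 163795 and 105040 at day 5, 110944, 71898 and 80594 at day 10, 34161, 31651 and 37624 on day 21, 29100, 32281 and 53234 on day 56, and 18728, 21057 and 45327 on day 112. In LUN they read 73743, 123931 and 22661 at day 5, 39052, 95442 and 64862 at day 10, 39851, 55016 and 58885 on day 21, 19931, 19543 and 33659 on day 56, and 135017, 54197 and 76474 on day 112. The Control arrays of days 21, 56 and 112 lay below those of days 5 and 10, while in LUN the arrays of day 112 were above all those of day 56.

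The LON arrays of Tpsb2 read 86278, 96385 and 136542 at day 5, 60934, 64458 and 81366 at day 10, 41660, 27421 and 14254 on day 21, 23559, 73671 and 26853 on day 56, and 31841, 40237 and 26298 on day 112. Its group means ranged 4.81-fold, from 24378 in LUN at day 56 to 117241 in Control at day 5. The day 5 mean was 3.07 ± 1.5 times the day 56 mean in Control, 3.01 ± 2.3 times in LUN and 2.57 ± 1.9 times in LON. No step of Tpsb2 up to day 56 passed the test in any diet, and the step from day 10 to day 21 was -1.33 in Control (SE 0.49, limma adjusted p = 0.119) and -1.02 over the pools (adjusted p = 0.361).

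The one call of Tpsb2 was the rise in LUN from day 56 to day 112, 1.81 on the log2 scale (SE 0.49, limma adjusted p = 0.0337) or 3.63 ± 2.1 times in means. It was lost without LUN array 1 or 2 of day 56 or array 1 or 3 of day 112 (adjusted p from 0.0792 to 0.220). Ms4a2, the IgE receptor beta chain, had group means from 233 to 468 and was called at no step.

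The order of levels over the 15 pools followed age most clearly at days 5 and 10. For Cma1 and for Cpa3 the 3 pools of day 5 came first and the 3 of day 10 next, and the 3 of day 21 lay below those. At days 56 and 112 the group means of Cma1, from 6545 to 11136, and of Cpa3, from 4189 to 7494, interleaved between the ages. The Cpa3 mean of LUN at day 112, 7494, was also above that of Control at day 21, 6230. For Kit the 6 pools of days 5 and 10 were above the other 9. For Tpsb2 they were too, except that LUN at day 112 was the third highest mean, 88563 ± 41744, with arrays that overlapped those of every day 5 pool.

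The first diet question is whether under-nutrition during suckling changed these genes. LUN against Control gave 3 calls among 25 gene and age pairs, with 7 at an unadjusted p under 0.05. They were Cma1 and Cpa3 higher at day 21, and Cpa3 higher at day 112. Called higher among all probes were 1.57% at day 21 and 0.176% at day 112, and 1.41% at day 5, 1.39% at day 10 and 0.203% at day 56 were called in either direction. Over the 15 pools, with the 5 ages as repeats, LUN differed from Control in 0 of the 5 genes by limma (0 at an unadjusted p under 0.05), as in 0% of all probes. The pool differences were 0.36 for Cma1 (SE 0.19) and 0.30 for Cpa3 (SE 0.21).

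At day 21 the LUN arrays of Cma1, from 22796 to 29795, all lay above the Control arrays, from 10943 to 14980. The mean was 2.03 ± 0.41 times that of Control and the log2 difference 1.02 (SE 0.23, limma adjusted p = 0.0062). The dimmer Cma1 probe gave 13650 ± 1483 in LUN, 10377 ± 1629 in LON and 5579 ± 631 in Control, with a LUN difference of 1.29 (SE 0.21, adjusted p = 0.000175). The call of the brighter probe held when any 1 array was left out, and was lost when only the 6 arrays compared were fitted (adjusted p = 0.279).

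Cpa3 at day 21 read 9734 to 11060 in LUN and 6212 to 6265 in Control, without overlap. The mean ratio was 1.68 ± 0.11 and the log2 difference 0.75 (SE 0.20, limma adjusted p = 0.0302). This call was lost without any 1 of the 6 arrays (adjusted p from 0.0548 to 0.108) and under median scaling (0.136). Tpsb2 at day 21 was 1.49 ± 0.32 times Control, with no overlap of arrays, but its log2 difference of 0.56 (SE 0.49) did not pass (adjusted p = 0.698).

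At day 112 Cpa3 read 7191 to 7851 in LUN and 3194 to 4964 in Control, without overlap. The mean ratio was 1.79 ± 0.39 and the log2 difference 0.86 (SE 0.20, limma adjusted p = 0.0323). Array 2 of Control at day 112, which of all 45 arrays correlated least with its pool (mean 0.806), carried the lowest value, and without it the difference was 0.68 (adjusted p = 0.219). Without any 1 of the LUN arrays the call was lost as well (adjusted p from 0.0871 to 0.112). Tpsb2 at day 112 was 3.12 ± 2.2 times Control, its arrays of 54197 to 135017 all above the Control arrays of 18728 to 45327, and did not pass (log2 difference 1.66, SE 0.49, adjusted p = 0.105). Cma1 at that age differed by -0.01 (SE 0.23).

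At day 5, before these falls, LUN arrays were above Control arrays for Cma1 and Cpa3 without passing the test, while the Tpsb2 mean was lower. The Cma1 mean was 1.56 ± 0.39 times Control (log2 difference 0.67, SE 0.23, limma adjusted p = 0.148), and the Cpa3 mean was 1.39 ± 0.25 times Control (0.47, SE 0.20, adjusted p = 0.28). That of Tpsb2 was 0.63 ± 0.49 times Control, with overlapping arrays (-0.93, SE 0.49, limma adjusted p = 0.419). At day 10 the Cpa3 arrays of LUN, 23518 to 25235, lay below those of Control, 32301 to 34696, a difference of -0.45 (adjusted p = 0.39). At day 56 all 4 brighter genes overlapped between LUN and Control.

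The second diet question is over-nutrition. LON against Control gave 0 calls among 25 by limma, with 3 at an unadjusted p under 0.05. The probes called in either direction were 1.77% on day 5, 0.739% on day 10, 1.4% on day 21, 1.54% on day 56 and 2.38% on day 112. Over the pools LON differed from Control in 0 of the 5 genes (0 at an unadjusted p under 0.05) and in 0.215% of all probes. Cpa3 was nearest to a call, and its LON arrays lay above all Control arrays at days 5, 21 and 112, though none of these differences passed. For this and the other statements on overlap of arrays, the share of all probes without overlap was not counted. A lack of overlap between repeat arrays of single pools is therefore a description and not a test.

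The LON mean of Cpa3 was 1.38 ± 0.22 times Control at day 5 (log2 difference 0.46, limma adjusted p = 0.337), 1.62 ± 0.29 times at day 21 (0.68, adjusted p = 0.0823) and 1.46 ± 0.34 times at day 112 (0.56, adjusted p = 0.127), each with an SE of 0.20. For Cma1 the brighter probe put LON at 1.18 ± 0.21 times Control at day 21 (0.24, adjusted p = 0.706), with overlapping arrays. The dimmer probe put it at 1.86 ± 0.36 times (0.89, SE 0.21, adjusted p = 0.0243), without overlap. The 2 probes of Cma1 thus differed on LON at day 21.

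**Figure D2:**
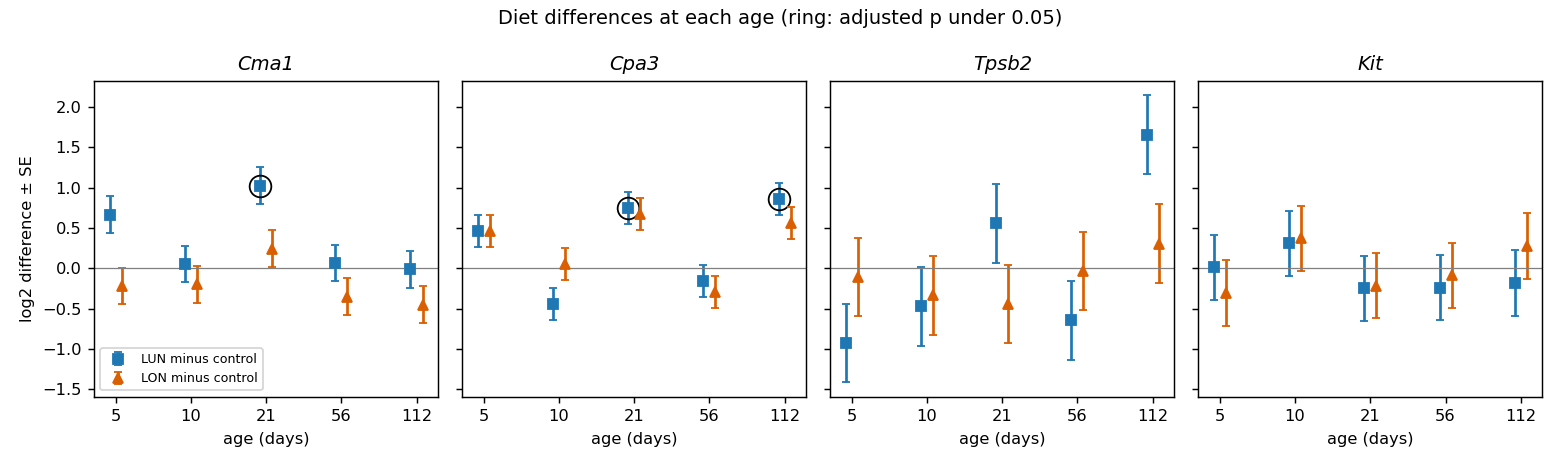
Log2 difference from Control with its SE at each age for LUN and LON, by gene, with a ring around differences at an adjusted p under 0.05. The rings stand at day 21 for Cma1 and Cpa3 and at day 112 for Cpa3, all in LUN, and the Cpa3 differences of LON run beside those of LUN at days 5, 21 and 112.

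Whether the course over age differed between diets was tested with the 8 interaction terms of the array fit. Cpa3 passed (F = 4.90, limma adjusted p = 0.0194), as did 3.96% of all probes. Its LUN differences from Control at the 5 ages in order were 0.47, -0.45, 0.75, -0.15 and 0.86 on the log2 scale, and its LON differences were 0.46, 0.05, 0.68, -0.29 and 0.56. Both rows are taken against the same Control arrays. Cma1 did not pass with the brighter probe (adjusted p = 0.264) and passed with the dimmer (0.00845). Tpsb2 (0.138), Kit (0.928) and Ms4a2 (0.640) did not pass.

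The 2 probes of Cma1 shared the fall over age and gave opposite signs in some differences that neither called. Their log2 values correlated at r = 0.979 over the 45 arrays and at r = 0.990 over the 15 group means. The group means of the dimmer probe ran from 3775 to 103165, a range of 27.3-fold. In Control from day 21 to day 56 the dimmer probe gave -0.01 on the log2 scale where the brighter gave -0.68, and from day 10 to day 21 it gave -2.79 against -2.29, so that the dimmer probe, like Cpa3, placed the Control level of day 21 at that of day 56. The sign differed between the brighter and the dimmer probe, with no call by either, for LON against Control at day 5 and at day 112 (-0.45 and 0.17), for LUN against Control at day 10 (0.05 and -0.18), day 56 (0.06 and -0.36) and day 112 (-0.01 and 0.12), and for Control from day 56 to day 112 (0.44 and -0.15). The array annotation names the same gene for both.

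**Figure D3:**
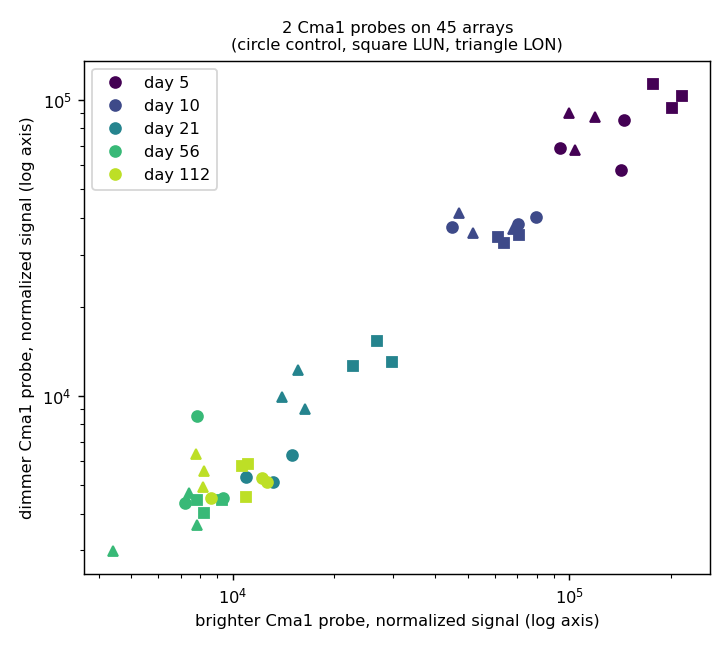
Normalized signal of the dimmer against the brighter Cma1 probe on 45 arrays, both on log axes, with shades for age and shapes for diet. The points lie along one line over the whole range (r = 0.979), with the arrays of day 5 at the upper end.

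The likeness among the members was described by correlation of log2 group means over the 15 pools, which share the age steps. Cma1 and Cpa3 had r = 0.974. Kit had r = 0.804 with Cma1 and 0.817 with Cpa3, and Tpsb2 had 0.754 and 0.794. Tpsb2 with Kit had 0.648, and Ms4a2 had from 0.148 to 0.474 with the others. The granule enzymes Cma1 and Cpa3 were thus the nearest pair, and the tryptase stood further off.

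The genes whose course was most like the mean z-score of Cma1, Cpa3, Tpsb2 and Kit were sought among the 7270 named genes that were brighter than the median probe and varied 2-fold or more between group means. The 10 nearest were Tmem255a (r = 0.978), Cstdc6 (0.969), B3gnt9 (0.969), Aspm (0.969), Stfa3 (0.967), H3f3b (0.965), Tbx18 (0.963), Prss34 (0.962), Rtl3 (0.960) and Ccn3 (0.959). The members themselves ranked 2 (Cpa3), 12 (Cma1), 138 (Kit) and 215 (Tpsb2). Prss34 encodes a serine protease known in basophils and mast cells, Cstdc6 and Stfa3 encode cystatin family protease inhibitors, Aspm a protein of the mitotic spindle, and Tbx18 a T-box transcription factor. Stfa genes lie in a family of close copies, so their probes may share signal.

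From day 10 to day 21 over the pools, their log2 differences ran from -4.74 for Cstdc6 through -2.41 for Tmem255a and -2.04 for Aspm to -0.98 for H3f3b. They were picked for this course, so these values describe them and are not tested. By the single member, the nearest genes were Rcn3 (0.976) and Prss34 (0.971) besides Cpa3 for Cma1, and Stfa3 (0.973) and Ccn3 (0.971) besides Cma1 for Cpa3. For Tpsb2 they were Nkx2-5 (0.940), Rpa2 (0.921) and Cpt1c (0.910), and for Kit Tmem100 (0.927), Klf10 (0.927) and Epor (0.921). For Ms4a2 no r was over 0.762. With so many genes searched over 15 pools, a high r is a description of course and no more, and 5, 6 and 5 of the 10 nearest were shared when the Control, LUN or LON pools were left out.

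**Figure D4:**
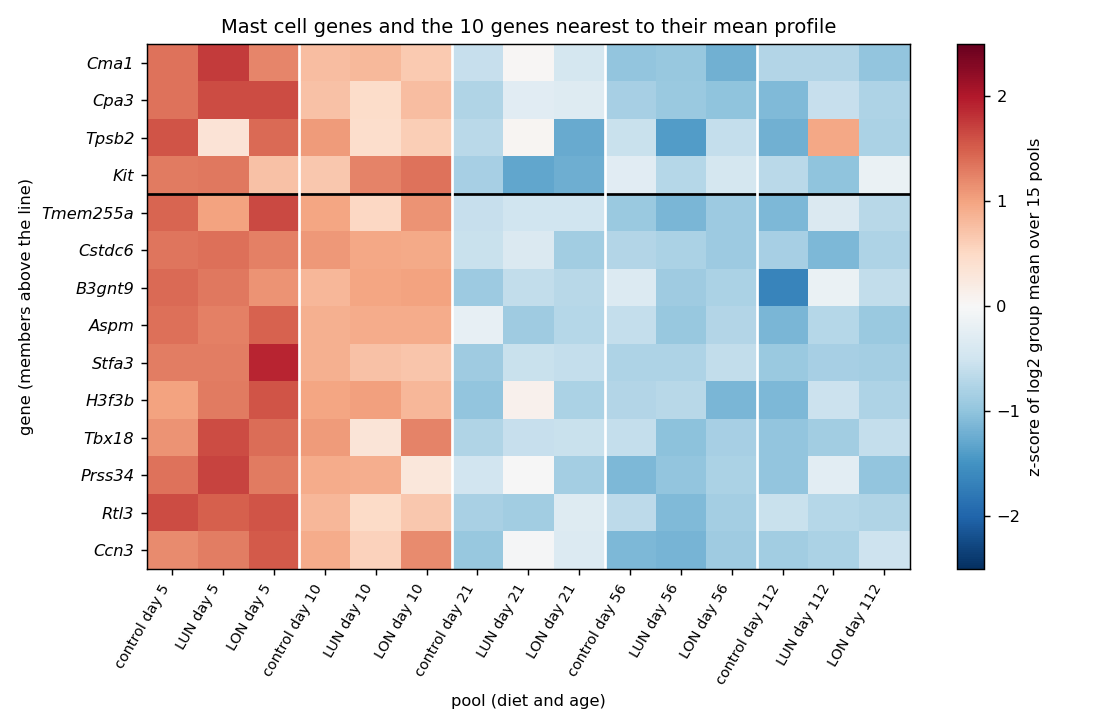
Z-score of the log2 group mean over the 15 pools, from low (blue) to high (red), for the mast cell genes above the line and the 10 nearest genes below it, with pools in columns. The high values lie in the pools of days 5 and 10 for members and neighbours alike.

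Other genes of mast cell biology were read from 4 further lists. Of 18 listed granule genes, 16 were measured and 8 were above the median probe signal, and of 19 genes of IgE and surface receptors and their signalling 12 were measured and 10 were above it. All 16 genes of Kit signalling and mast cell transcription were measured, and 4 of 7 genes of lipid mediator synthesis. From day 10 to day 21 over the pools, 0 genes of the 4 lists were called by limma, and the median log2 differences were -0.05, -0.16, 0.03 and -0.24 in that order, against -0.01 over all probes, of which 0.536% were called lower. From day 5 to day 10 the medians were -0.41, -0.05, 0.07 and -0.27, with 3 of 16, 5 of 12, 11 of 16 and 0 of 4 genes above 0, and again 0 were called, as 0% of all probes were.

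Among genes named for their role, the tryptase Tpsab1 changed by 0.42 from day 10 to day 21 over the pools (limma adjusted p = 0.679). At this step the granule proteoglycan Srgn changed by 0.31 (0.602), the histidine decarboxylase Hdc by -0.00 (0.999) and the IgE receptor alpha chain Fcer1a by -0.33 (0.752). The Kit ligand Kitl (0.11) and the transcription factors Gata2 (-0.16) and Mitf (0.10) were not called either. Tpsab1 and Fcer1a were dim, at percentiles 36.3 and 33.5 of probes, and Mitf stood at 6.02, while Srgn stood at 96.9. Srgn is expressed by many blood cells. Fcer1g had no named probe and was not analysed here.

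Between diets, Hdc, which makes histamine, was higher in LUN at day 21, as Cma1 and Cpa3 were. Its mean was 2889 ± 937 in LUN, 1494 ± 403 in LON and 864 ± 385 in Control (SD, n = 3 arrays), and the LUN difference was 1.80 on the log2 scale (SE 0.42, limma adjusted p = 0.0104). In LUN it then fell by 2.94 to day 56 (SE 0.42, adjusted p = 8.64e-06). At day 5 its means were 1926 in Control, 3498 in LUN and 2252 in LON. Hdc was the only granule list member called in LUN at any of the 5 ages. Of the 16 measured granule genes, 9 differed above 0 in LUN at day 21 and 1 was called higher. Their median log2 difference was 0.01, against 0.02 over all probes, of which 1.57% were called higher.

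In the other lists LUN at day 21 had Pla2g4a, a phospholipase that frees arachidonic acid, higher by 1.05 (SE 0.29, limma adjusted p = 0.0366). Stat5a, a transducer of cytokine signals, was lower by -1.07 (SE 0.24, adjusted p = 0.00707), and the adaptor Gab2 by -1.97 (SE 0.50, adjusted p = 0.0208), the Control arrays of Gab2 having an SD of 1620 on a mean of 2409. In LON at day 112, Pla2g4a (1.13, adjusted p = 0.028), Stat5a (0.97, 0.0224) and the phosphatase Ptpn6 (1.05, 0.0277) were higher, and Tph1, which makes serotonin, was lower at day 56 (-1.57, 0.0119). These genes are used by many cell types besides mast cells. They are named because they were called, so they do not describe their lists. Of all probes, 1.57% were called higher in LUN at day 21. In LON, 2.38% at day 112 and 1.54% at day 56 were called in either direction. The share called lower in LUN at day 21 was not counted.

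Plcg1, a phospholipase of receptor signalling, was higher in LON at every age, with means of 13351 to 14438 against 302 to 585 in Control and LUN. Over the pools its LON difference was 5.07 on the log2 scale (SE 0.20, limma adjusted p = 3.25e-08). The LON arrays carry a number series of their own in the labels, so that diet and array series cannot be told apart. The LON differences of Cma1 and Cpa3 over the pools were -0.20 and 0.29 (SE 0.19 and 0.21), and 0.14 (SE 0.23) for the dimmer Cma1 probe.

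Basophils share Cpa3 with mast cells. Besides Cpa3, 1 of the other 5 basophil markers passed from day 10 to day 21 over the pools, Prss34 with -1.57 (SE 0.29, limma adjusted p = 0.0323). Its means at day 5 were 4116 in Control, 5700 in LUN and 3904 in LON, and at day 56 they were 465, 546 and 564. Over the 6 basophil markers, Cpa3 included, the median log2 difference over the pools was -1.02 from day 5 to day 10, with 1 of 6 above 0 and 0 called, and -0.50 from day 10 to day 21, with 2 of 6 above 0. The part of basophils in the Cpa3 signal was not tested. Of 6 measured eosinophil markers 0 were called at that step, with a median log2 difference of 0.51. Of the 6 measured melanocyte markers, which would accompany Kit in skin, 0 were above the median probe signal. In LON at day 5, however, 3 of the 6 were called higher than in Control, Tyrp1 by 3.66, Dct by 2.20 and Pmel by 2.49 on the log2 scale (limma adjusted p = 0.00159, 0.00964 and 0.00491), with a median of 1.25 over the 6. These 3 probes were dim, at percentiles 34.1, 24.6 and 9.49 of probes in that order. In this comparison 1.77% of all probes were called in either direction. Kit differed in LON at day 5 by -0.31 (limma adjusted p = 0.914).

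Other cells in the dissected depot moved with age and diet and were read from marker lists in the same pools. The adipocyte markers were bright in every pool, with a mean log2 signal from 14.78 to 17.18, and macrophage markers ranged from 14.37 to 15.32. Preadipocyte and fibroblast markers were between 16.89 and 17.40 at days 5 and 10 and between 16.52 and 16.73 at day 21. The 8 measured markers of skeletal muscle, however, ranged widely between pools, with means of 13.44, 13.51, 17.21, 12.71 and 17.07 in Control at the 5 ages in order, 13.84, 15.79, 15.65, 15.88 and 14.55 in LUN, and 13.26, 17.01, 15.78, 17.39 and 12.56 in LON. All 8 were above the median probe signal.

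From day 10 to day 21, 7 of the 8 muscle markers were called higher in Control (median 3.97), 1 higher and 1 lower in LUN (median -0.09) and 7 lower in LON (median -1.22). Of all probes, 2.12% in LUN and 1.41% in LON were called lower at this step, and the share called higher was not counted. Cma1 and Cpa3 fell in all 3 diets at this step, and the part of muscle RNA in these falls was not tested. The log2 falls of both genes were larger in Control than in LUN or LON. The difference in steepness between diets was not tested apart from the interaction above.

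Against Control, the muscle markers of LUN had median differences of 0.38, 2.22, -1.69, 3.49 and -2.38 at the 5 ages in order, with 8 of 8 called higher at day 10, 7 lower at day 21, 7 higher at day 56 and 8 of 8 lower at day 112. Those of LON were -0.07, 3.54, -1.50, 5.17 and -4.37. Of all probes, 1.39% at day 10 and 0.203% at day 56 were called in LUN in either direction. The shares called lower in LUN at days 21 and 112 were not counted. The Cpa3 differences at the 5 ages in order were 0.47, -0.45, 0.75, -0.15 and 0.86 in LUN and 0.46, 0.05, 0.68, -0.29 and 0.56 in LON. Those of the brighter Cma1 probe were 0.67, 0.05, 1.02, 0.06 and -0.01 in LUN and -0.22, -0.20, 0.24, -0.35 and -0.45 in LON. Called among these were Cpa3 in LUN at days 21 and 112 and Cma1 in LUN at day 21. The part of the muscle markers in the Cpa3 and Cma1 differences was not tested. At day 5, 0 of the 8 muscle markers were called higher in either diet and 1 was called lower in LON.

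The 6 measured markers of skin and mammary epithelium had means of 10.51, 9.18 and 13.30 at day 5 and 9.68, 11.03 and 11.53 at day 21 in Control, LUN and LON in that order. Against Control, 3 were called lower in LUN at day 5 (median -1.20) and 2 higher at day 21 (median 1.20). In LON, 4 were called higher at day 5 (2.82), 3 at day 10 (2.68) and 3 at day 21 (1.48). Of all probes in LUN, 1.41% were called in either direction at day 5 and 1.57% were called higher at day 21. In LON, 1.77%, 0.739% and 1.4% were called in either direction at days 5, 10 and 21. Skin also holds mast cells, and the part of these markers in the differences was not tested.

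**Figure D5:**
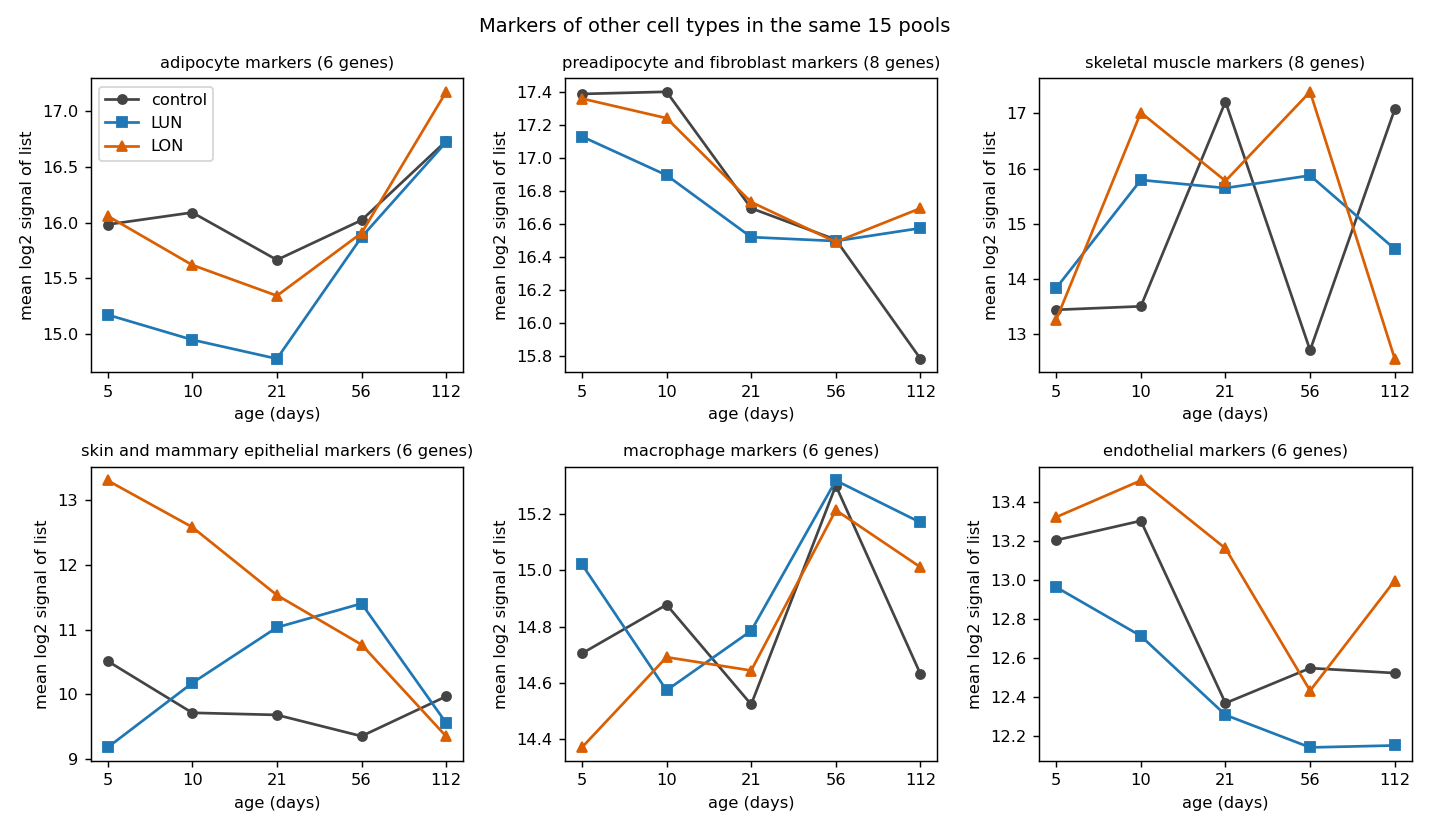
Mean log2 signal of marker lists of other cell types against age in days, with 1 point per pool and a line per diet. The skeletal muscle list moved most, between 12.56 and 17.39, and stood lower in LUN and LON than in Control at days 21 and 112.

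As a whole the arrays differed in quality between pools. Raw medians ran from 545 to 1459. Arrays correlated with the others of their pool at 0.806 to 0.963 on average, and 12 of 45 were under 0.9. All 3 arrays of Control at day 112 were among these 12, so the day 112 comparisons rest on the least repeatable pool. For Cpa3 these arrays had an SD of 906 on a mean of 4189, against an SD of 208 on a mean of 5638 at day 56.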

How the data were processed

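Inguinal fat RNA was measured on 45 arrays, 3 for each of 15 pools of 12 mice, and all arrays were used. The intensity values were deposited by the authors as raw chemiluminescence signals, not yet normalized between arrays. For the background step of the scanner the sources used here give no method. The authors also deposited log2 values after quantile normalization, which were used as an alternative only (correlation 0.9998 with those computed here). Raw signals were quantile-normalized over the 45 arrays and taken to log2, and a mean per group was fitted to 33012 probes with limma 3.58.1 in R 4.3.3 (prior degrees of freedom 2.74), two-sided, with Benjamini-Hochberg adjustment over all probes and a threshold of 0.05. A second limma fit used the 15 pool means with additive terms for age and diet (prior degrees of freedom 3.99), and an F-test of 8 interaction terms was taken from the array fit. Scripts were tested on simulated data. Figures were drawn with matplotlib 3.10.9.

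Probe symbols came from the platform annotation, updated by gene ID through RefSeq for 14402 probes. Of the probes, 14411 had 1 symbol, 247 several and 18354 none, and the brightest probe stood for a gene. All 6 members were to be named, with called genes of the 4 further mast cell lists (up to 4 a list by adjusted p over pool ages and by diet), 8 genes by role and the genes nearest in course. Members and lists were chosen with earlier results of these data known. Alternatives were other scalings, an offset of 197.34 (a low percentile of the signals), a filter on dim probes, the dimmer Cma1 probe, an intensity trend, the compared arrays alone, the methods' t-test, the replicate number as a block and leaving out each array or the pools of a diet or age. Array numbers did not pair arrays across groups (mean correlation of deviations -0.0031 for equal and 0.0018 for other numbers). The number of arrays limits the precision.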

Additional observations from a re-analysis of the deposited data

Results flagged for a closer look

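The course of Cpa3 over age differed between the diets by a test of the difference itself, the F-test of the interaction of diet and age over 45 arrays (limma adjusted p = 0.0194). Its arrays of LUN lay above those of Control at days 5, 21 and 112 and below them at day 10, and those of LON lay above Control at days 5, 21 and 112. The share of all probes with arrays so separated was not counted. The adjusted p ran from 0.00226 to 0.0432 over the 53 alternatives computed for it, all under the threshold. The test measures array error between single pools, and skeletal muscle markers also differed between these pools.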

How the results depend on the processing

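Counts of called mast cell genes moved as follows. With median scaling LON had 1 call and the interaction 2, with cyclic loess LUN had 5 and LON 1, and with probes above the median signal alone LON had 2. With the dimmer Cma1 probe LON had 1 and the interaction 2, and with an intensity trend LON had 1 and the pool ages 5. With only the arrays compared, LUN had 0 diet calls, and the age steps of Control had 2, of LUN 0 and of LON 0. The methods' t-test at its unadjusted threshold gave LUN 8, LON 2 and 8, 11 and 8 age steps in Control, LUN and LON, and after Benjamini-Hochberg LUN 1 and 1, 3 and 0 age steps. The pool ages had 0 without the Control, LUN or LON pools, where only 10 pools remain. Leaving out each array in turn gave 2 to 4 calls for LUN, 0 to 1 for LON, 2 to 4, 6 to 8 and 5 to 7 for the age steps of Control, LUN and LON, and 1 for the interaction. Control had 2 without array 1 or 3 of day 10, and LON had 1 without array 2 or 3 of Control at day 112. With the replicate number as a block, LUN had 3 calls, LON 0, the age steps 4, 7 and 6 and the interaction 1, the step lost being that of Kit in LUN from day 10 to day 21 (adjusted p = 0.0541). Of 45 arrays, 15 correlated best with their own number. No called difference turned its direction, while some Cma1 differences that were not called did so with the dimmer probe. The cause of these moves was not tested. Median scaling moved the median of all probes by up to 0.24 on the log2 scale (LON at day 112 against day 56), by 0.13 in LUN and 0.19 in LON against Control at day 112 and by 0.16 from day 5 to day 10 in Control. Cma1 from day 5 to day 10 lost its call in Control without array 1 or 2 of day 5 or 1 or 3 of day 10, and in LON without array 2 of day 5 or 1 or 2 of day 10 (adjusted p from 0.053 to 0.0773). Each arm rests on 1 pool of mice, so differences between mice and litters were not measured, and Ms4a2 was too dim to follow.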
